A study of Mus musculus with 8 samples.

Results

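Open chromatin of splenic type 1 conventional dendritic cells (cDC1) was compared between mice that carried a floxed Hdac1 gene without Cre (WT) and mice that carried it with Mx1-Cre (KO). These are 4 of the 8 libraries of the series, 2 WT and 2 KO, and were chosen by the group in their titles. The other 4 libraries are type 2 cells (cDC2) of the same genotypes and serve to show where cDC1 differed. They also entered the test of summits per gene, the joining of summits into sites and the choice of list length. The assay was ATAC-seq, in which a transposase inserts adapters into accessible DNA. All mice, controls included, were sorted 2 weeks after poly I:C, an RNA mimic that induces interferon and with it the Mx1 promoter of the Cre. The cDC1 were sorted as Lin-CD11c+MHCII+CD64-XCR1+CD11b- cells. Mx1-Cre acts in blood stem cells and in many other cell types, so Hdac1 was not deleted in dendritic cells alone, and poly I:C is itself a stimulus for dendritic cells. The labels do not say whether the libraries of 1 group are different animals or whether both subsets came from the same mice, so the tests measure only the spread between these libraries, which may be technical.

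HDAC1 is a class I lysine deacetylase. It works in the SIN3, NuRD and CoREST corepressor complexes, where it removes acetyl groups from histone tails, and its close relative HDAC2 can take its place in them. cDC1 depend on the transcription factors IRF8 and BATF3, take up dying cells and present their antigens to CD8 T cells. Accessible DNA is found at promoters and enhancers, where nucleosomes are displaced.

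Each deposited list holds the summits of called peaks, the points of highest signal, with 1 summit per peak and a score. The lists held 76022 and 77585 summits in WT and 74963 and 96031 in KO, so KO had both the shortest and the longest list (2-sided exact permutation test, p = 1). Read depth is unknown. All values below therefore come from the 61737 best-scored summits of each library unless stated otherwise, and scores enter only as a rank within the library, from 0% for the lowest to 100% for the highest. The lowest score in these equal lists was 4.93 and 4.95 in WT and 4.53 and 7.21 in KO, which puts the KO libraries on either side of WT. With 2 libraries against 2, an exact permutation test cannot give a p below 0.333. Cd8a, a marker gene of cDC1 in the spleen, had 6 and 7 summits in WT and 5 and 6 in KO cDC1, against 0, 0, 0 and 1 in the cDC2 libraries. No summit was assigned to Xcr1, the chemokine receptor gene used for the sort.

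Hdac1 itself (GRCm38, chromosome 4, 129516104 to 129542646) had 2 and 1 summits in WT and 1 and 1 in KO. Its strongest summit lay 170 to 188 bp beyond the right end of the gene in every cDC1 library, at a rank of 96.2% and 94.6% in WT and of 90.7% and 95.8% in KO, and the groups overlapped. The labels do not give the deleted exons, so these summits do not test the deletion. Hdac2 had 3 and 3 summits in WT and 4 and 3 in KO. Hdac3, the catalytic subunit of the NCoR and SMRT complexes, had 1 in each of the 4 libraries.

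Promoters with a summit in both KO libraries and none nearby in WT are shown first, because they were more numerous than the reverse kind. Promoters were taken as windows from 250 bases before to 50 bases after a RefSeq gene start (GRCm38.p6), 21237 windows of 17468 genes. The stretches below run 5′ to 3′ on the plus strand and end before the annotated span of the gene, and the bases around each library's summit, up to 10 on either side, are in capitals. In the first 3 neither WT list of cDC1, taken in full, had a summit within 1 kb, while at least 1 WT list of cDC2 had one. Lypd6 (chr2:50066250-50066399), which encodes a membrane-anchored protein of the Ly6 family, had its KO summits 131 and 41 bases before the start, at ranks of 63.0% and 33.8%. Angptl2 (chr2:33215801-33215950), a secreted angiopoietin-like protein, had them 43 and 26 bases before the start, at 32.7% and 40.8%. Slc16a9 (chr10:70245031-70245180), a member of the monocarboxylate transporter family, had them 239 and 101 bases before the start, at 30.2% and 27.1%.
Lypd6: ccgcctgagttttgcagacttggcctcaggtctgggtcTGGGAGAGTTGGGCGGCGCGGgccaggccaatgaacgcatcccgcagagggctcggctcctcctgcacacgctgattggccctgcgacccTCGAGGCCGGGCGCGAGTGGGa
Angptl2: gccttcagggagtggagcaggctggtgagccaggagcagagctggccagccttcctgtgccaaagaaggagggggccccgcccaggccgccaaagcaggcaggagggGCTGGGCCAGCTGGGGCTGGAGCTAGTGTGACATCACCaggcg
Slc16a9: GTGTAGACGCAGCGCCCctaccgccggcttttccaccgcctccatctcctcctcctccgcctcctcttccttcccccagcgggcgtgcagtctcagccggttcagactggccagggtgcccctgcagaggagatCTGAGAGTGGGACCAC
The next 2 are strong promoters with summits in both genotypes, at different positions. Vkorc1l1 (chr5:129941859-129942008), a vitamin K epoxide reductase gene, is shown with its KO summits, at ranks of 98.2% and 97.0%. Ninj1 (chr13:49187379-49187528), which encodes a protein that ruptures the membrane of dying cells, is shown with its WT summits, at ranks of 91.1% and 90.4%.
Vkorc1l1: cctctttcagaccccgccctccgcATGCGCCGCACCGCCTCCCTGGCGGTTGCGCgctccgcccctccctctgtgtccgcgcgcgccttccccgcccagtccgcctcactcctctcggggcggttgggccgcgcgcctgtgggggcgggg
Ninj1: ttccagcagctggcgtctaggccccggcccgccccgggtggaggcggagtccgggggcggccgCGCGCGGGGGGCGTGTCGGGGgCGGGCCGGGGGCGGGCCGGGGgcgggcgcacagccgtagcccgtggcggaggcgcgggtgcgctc
A GC box (GGGCGG) and a CCAAT box (CCAAT) were searched on both strands. The stretch of Lypd6 holds 1 GC box and 2 CCAAT boxes, that of Angptl2 1 GC box, that of Slc16a9 neither, and those of Vkorc1l1 and Ninj1 hold 5 GC boxes each. These matches are a description of the letters and not of bound factors.

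With the number of summits held equal, those of KO cDC1 were spread over more genes and more promoters. A summit was given to the nearest protein-coding gene within 50 kb. In WT 14816 and 14760 genes had at least 1 summit, and in KO 15122 and 15090, which is 14788 ± 39.6 against 15106 ± 22.6 genes (mean ± SD, n = 2 each). The groups did not overlap, and the difference of 318 genes was larger than the spread between replicates (exact permutation p = 0.333, the smallest possible). Promoter windows with a summit numbered 7725 and 7786 in WT and 7896 and 7997 in KO, a difference of 191 windows, again without overlap (exact permutation p = 0.333). At the other end of the range, 1088 and 1104 genes had 10 or more summits in WT, and 1030 and 1010 in KO. The median gap from a summit to the next was 10948 and 10920 bp in WT and 11528 and 11875 bp in KO. Both KO libraries thus had fewer densely covered genes and wider spacing than both WT libraries (exact permutation p = 0.333 for each). Over all deposited summits the KO excess was 463 genes and 265 windows, but the windows of the groups then overlapped, with 8079 in the second WT and 8078 in the first KO library.

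**Figure D1:**
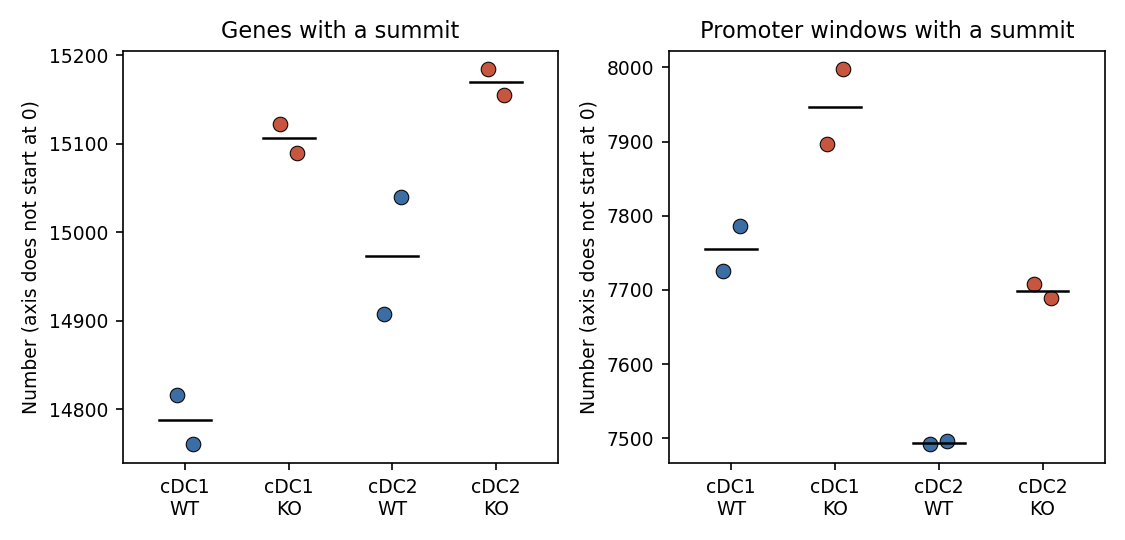
Number of genes (left) and of promoter windows (right) with at least 1 of the 61737 best-scored summits, by group; each point is 1 library, the line is the group mean, and the vertical axes do not start at 0. Both KO libraries lie above both WT libraries in cDC1 (15122 and 15090 against 14816 and 14760 genes) and in cDC2.

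The cDC2 libraries had the same order. There 14907 and 15040 genes had a summit in WT and 15184 and 15155 in KO, and 7492 and 7496 promoter windows in WT against 7708 and 7689 in KO. Genes with 10 or more summits numbered 1072 and 1048 in WT and 1023 and 1038 in KO. The median gap overlapped between the genotypes in cDC2, with 10830 and 11691 bp in WT and 11304 and 11774 bp in KO.

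Counted gene by gene, 210 of the 16775 genes with a summit in any of the 8 libraries (1.25%) had one in both KO and in neither WT library of cDC1, and 69 (0.411%) the reverse. In cDC2 these numbers were 166 and 82. Of the 210 genes, 109 had a summit in both WT libraries of cDC2, 130 in both KO libraries of cDC2, and 23 in no cDC2 library. Of the 69 genes, 21 had a summit in both WT libraries of cDC2, 21 in both KO libraries, and 18 in none. Some of the genes without a WT summit are known from cells other than dendritic cells, and the following were picked after their values were seen. Cd2, an adhesion receptor of T and NK cells, had 1 and 2 summits in KO cDC1, and Il9, a T cell cytokine gene, had 1 and 2. Stab1, a scavenger receptor of macrophages and endothelium, had 2 and 1, as did the neutrophil chemokine gene Cxcl1 and the homeobox gene Hoxa13. All of these named genes also had summits in every cDC2 library, as did 91 of the 210 genes. The named ones averaged at least 1 summit over the 8 libraries. With so few summits in cDC1, they could pass that filter only through cDC2, so their cDC2 summits are no separate finding. With WT before KO, Cd2 had 4, 7, 5 and 5 there, and Cxcl1 had 1, 2, 2 and 1. Hoxa13 had 2, 2, 3 and 2, and Il9 and Stab1 had 2 in each.

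The promoter windows gave the same direction. A window with a summit in both KO libraries and no WT summit within 1 kb occurred 55 times (0.259% of all windows, 54 genes), and the reverse 8 times (0.0377%, 7 genes). In cDC2 the numbers were 39 (0.184%) and 7 (0.033%). Without any 1 of the 4 libraries, which leaves fewer libraries to agree, they were 106 to 169 for KO and 24 to 44 for WT. The summits in the 55 windows had a median rank of 26.6%, below that of most summits. Of these windows, 26 had a summit within 1 kb in both WT libraries of cDC2, 35 in both KO libraries of cDC2, and 7 in no cDC2 library. The counts of 55 and 8 hold at equal list length. Against the full lists of the other genotype, 15 of the 55 (14 genes) and 0 of the 8 still had no summit within 1 kb. The rest of the 55 windows thus had a lower-scored WT summit nearby. The full lists differ in length, and the second KO list is the longest with 96031 summits. A WT window is therefore more easily matched than a KO window, so 15 and 0 are not on an equal footing.

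The following members of the 54 genes were picked after their values were seen. Epha4, an ephrin receptor, had the strongest of these promoter summits, with KO ranks of 66.1% and 69.6%. Ctnnd1, which encodes the cadherin partner p120 catenin, had 54.4% and 47.5%. Nlrc4, an inflammasome component that responds to bacterial flagellin, had 34.6% and 26.9%. Rasgrp2, an activator of the small GTPase Rap1 in blood cells, had 24.0% and 65.5%, far apart. Ldha, a lactate dehydrogenase gene, had 36.4% and 40.0%. Each of these promoters had a lower-scored summit within 1 kb in at least 1 full WT list of cDC1. In cDC2, Epha4, Nlrc4, Rasgrp2 and Ldha had a summit within 1 kb in all 4 libraries, and Ctnnd1 in none. The 7 genes of the reverse kind were Abca14, C130050O18Rik, Cd180, Il1a, Pbld1, Sdcbp2 and Sla2. Cd180, a toll-like receptor homologue, had WT ranks of 39.4% and 29.2%. Il1a, the gene of interleukin 1 alpha, had 26.4% and 1.78%, which is near the end of the second list.

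Base composition was compared between kinds of promoter window. A GC box was in 65.2% of the 181 windows with a summit in both KO libraries and in no WT library, and in 61.8% of the 131 windows of the reverse kind. It was in 74.3% of the 6218 windows with a summit in all 4 libraries and in 46.2% of all windows. The median GC content of these kinds was 62.3%, 59.3%, 63.0% and 56.3%, and 50.7% in the 11850 windows without any cDC1 summit. In the 55 windows with no WT summit within 1 kb, 69.1% held a GC box and the median GC content was 63.0%, and in the 8 windows of the reverse kind 12.5% and 51.5%. The differences between kinds were not tested, and the last kind rests on 8 windows.

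Sites near gene ends also stood higher in the KO lists where both genotypes had them. Summits of all 8 libraries within 250 bp of each other were chained into sites, of which 41868 had a summit in all 4 cDC1 libraries. The 10273 shared sites within 1 kb of either end of a gene had a median rank of 86.6% and 86.0% in WT and of 88.1% and 87.9% in KO. The libraries did not overlap (exact permutation p = 0.333). Both KO libraries ranked above both WT libraries at 2708 of these sites (26.4%) and below them at 1200 (11.7%), while over all shared sites this held for 8168 (19.5%) and 8333 (19.9%). The 17562 sites elsewhere inside genes went the other way, with medians of 60.0% and 59.8% in WT and 58.9% and 59.1% in KO, and with 17.0% of sites above and 22.7% below. At the 14033 sites outside genes 17.6% were above and 22.4% below. Their library medians overlapped, with 58.5% and 59.0% in WT and 58.0% and 58.7% in KO (exact permutation p = 0.667).

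The shift was small beside the scatter of single sites. Over the 4 pairs of a KO and a WT library, the median rank difference near gene ends was 0.314 to 1.07 percentage points, each in favour of KO, and the pairs of the same genotype gave -0.305 and -0.234 points. Inside genes the 4 pairs gave -0.976 to -0.82 points, and the pairs of the same genotype 0.00243 and 0.0227 points. A single shared site differed by a median of 6.22 points between the WT libraries, 7.13 between the KO libraries and 6.94 to 7.96 across genotypes. In cDC2 the 4 pairs gave 0.58 to 0.999 points near gene ends and -0.725 to -0.502 inside genes. Among the promoter windows with a summit in all 4 cDC1 libraries, the median difference was 0.83 points in the CpG-poorest of 3 equal parts, 0.41 in the middle part and 0.47 in the CpG-richest part. With all deposited summits the values were 1.39 points inside genes, 1.86 outside and 1.49 near gene ends. Those lists differ in length, so their ranks do not show whether the shift near gene ends holds.

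**Figure D2:**
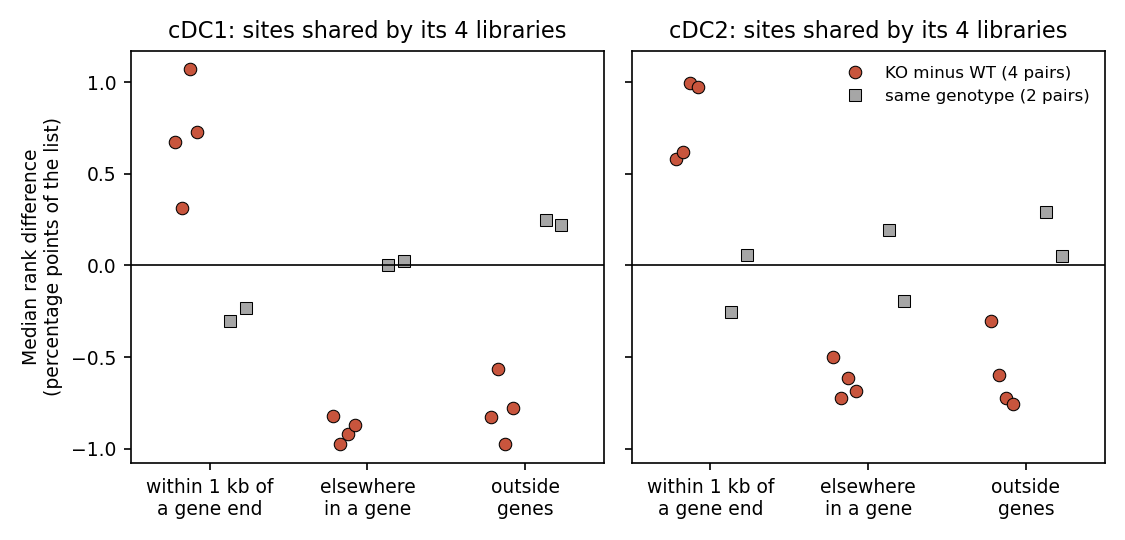
Median rank difference, in percentage points of the list, at sites shared by the 4 libraries of cDC1 (left) and of cDC2 (right), by place; circles are the 4 pairs of a KO minus a WT library and squares the 2 pairs of the same genotype, second minus first. Near gene ends the 4 circles of cDC1 lie above 0 (0.314 to 1.07 points), and inside and outside genes they lie below 0.

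The shares of summits by place followed this pattern in part. Within 1 kb of a gene end lay 20.01% and 19.99% of the WT summits and 20.6% and 19.8% of the KO summits (exact permutation p = 1). Elsewhere inside genes lay 44.7% and 44.5% in WT and 44.0% and 44.3% in KO, lower in both KO libraries and without overlap (exact permutation p = 0.333, the smallest possible). Outside genes lay 35.3% and 35.5% in WT and 35.4% and 35.9% in KO (exact permutation p = 0.667). The difference near gene ends was 0.212 points and turned to -0.199 without the first KO library.

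Few single genes differed in their number of summits. Counts were analysed as log2(summits + 1) with limma over all 8 libraries, and of 14058 genes tested 1 (0.00711%) passed at an adjusted p below 0.05. This gene was Epha3 (chromosome 16, 63543532 to 63864175), a receptor tyrosine kinase for ephrin A ligands. It had 0 and 0 summits in WT and 3 and 4 in KO cDC1, and 3 in each of the 4 cDC2 libraries, so the WT cDC1 libraries alone had none. Epha3 rose by 2.16 on the log2(summits + 1) scale (SE 0.271, limma adjusted p = 0.0115). It was not called with a pseudocount of 0.5 (limma adjusted p = 0.227) or without the filter on low genes (limma adjusted p = 0.29). A count of 0 says that no called peak was nearest to the gene; chromatin below the calling threshold may still be open.

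At an unadjusted p below 0.05 stood 677 genes (4.82%), 427 with more summits in KO (3.04%) and 250 with fewer (1.78%). The libraries did not overlap at 944 genes with more summits in KO (6.72%) and at 949 with fewer (6.75%). Among genes with more summits in KO, the 11 next in order of p did not pass, and 9 of them had 0 summits in both WT libraries. Tom1l1, an adaptor of endosomal sorting and Src signalling, had 3 and 2 summits in KO (limma adjusted p = 0.0629). Lypd6, whose promoter is printed above, had 3 and 3 (limma adjusted p = 0.0629). Cd96, a receptor of T and NK cells, also had 3 and 3 (limma adjusted p = 0.0742), and its promoter was among the 55 windows, at KO ranks of 52.9% and 23.7%. That promoter had a lower-scored summit within 1 kb in at least 1 full WT list. Flrt1, a leucine-rich transmembrane protein, had 2 and 3 (limma adjusted p = 0.0742). Esrrg, an orphan nuclear receptor, Fam114a2, Mgat3, Chst2 and Itprid1 had 2 and 2 summits each. Oit1 had 1 and 1 summits in WT and 5 and 4 in KO, and Tprg 1 and 1 in WT and 4 and 4 in KO.

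In the other direction no gene passed. Gak, the kinase that helps to uncoat clathrin vesicles, had 2 and 2 summits in WT and 0 and 0 in KO (log2 difference -1.58, SE 0.271, limma adjusted p = 0.0742). One of these summits belonged to a strong site in all 4 libraries (chromosome 5, 108629728 to 108629792, ranks of 98.0% and 98.0% in WT and 97.2% and 96.0% in KO) that crosses the right end of Gak at 108629777. In KO its summits were counted for another gene, so the count of 0 overstates the difference. The same holds for Snrpa, a spliceosomal gene with 2 and 2 summits in WT and 0 and 0 in KO, and for Fam114a2 in the opposite direction, each of which has a site in all 4 libraries across its right end. Gpr34, a receptor for lysophosphatidylserine, had 3 and 3 summits in WT and 1 and 0 in KO (limma adjusted p = 0.238). Ifi208, of the interferon-inducible p200 family whose members resemble each other, had 3 and 1 against 0 and 0 (limma adjusted p = 0.243). Whether reads were split between such relatives was not tested, so its counts are given as uncertain. Rab29, a small GTPase, had 3 and 4 against 1 and 1, and Ift140, of the intraflagellar transport complex, 4 and 5 against 2 and 2. Il1a had 6 and 7 summits in WT and 2 and 4 in KO (limma adjusted p = 0.539), and 3 of its sites were found in both WT libraries and in no KO library. Gm7247, Hoxa7, Sla2, Nif3l1 and Fam227a made up the rest of the 12 genes of smallest p, each with 1 or 2 summits in each WT library.

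**Figure D3:**
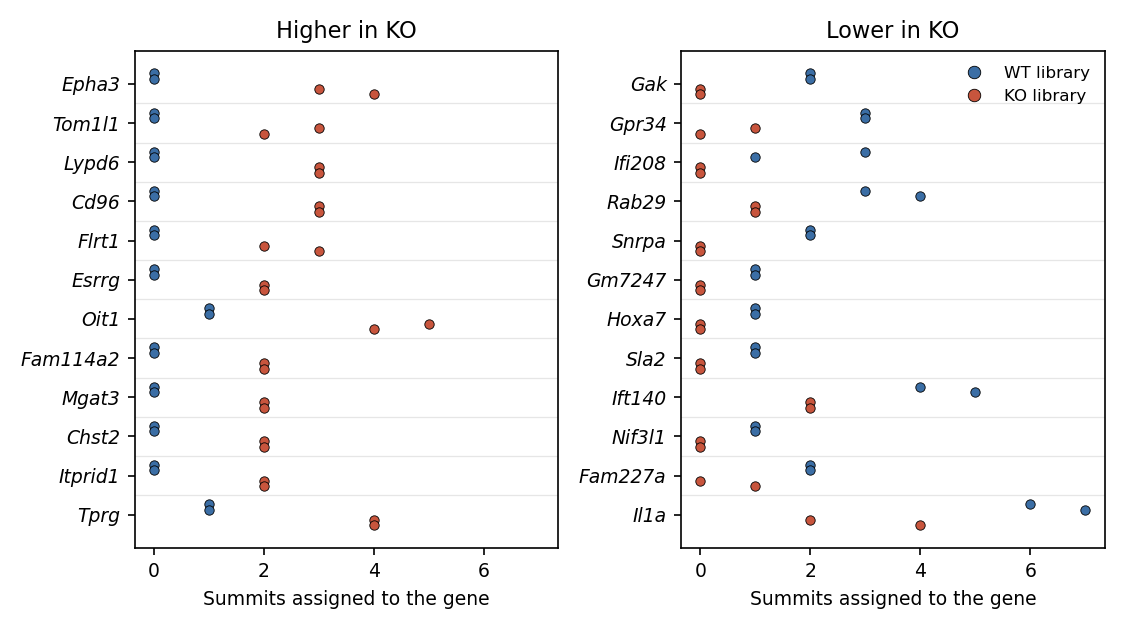
Number of summits assigned to the 12 genes of smallest p with more (left) and with fewer (right) summits in KO cDC1; each point is 1 library, WT in blue and KO in red. Epha3, with 0 and 0 summits in WT and 3 and 4 in KO, is the gene that passed.

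The genotype effect on summits per gene did not differ detectably between the subsets. For the difference between the KO effect in cDC1 and that in cDC2, limma called 0 of 14058 genes, with 484 (3.44%) at an unadjusted p below 0.05. For Epha3 this difference was 2.16 on the log2 scale (limma adjusted p = 0.479).

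No gene of 21 lists of dendritic cell, chromatin and lineage genes passed. Of 370 listed genes tested with limma, 6 had more and 5 had fewer summits in KO at an unadjusted p below 0.05 (3.04% and 1.78% over all genes). The libraries did not overlap at 22 genes with more summits in KO and at 30 with fewer, beside 6.72% and 6.75% of all genes tested. Of 25 tested genes of cDC1 identity 3 were above WT in both KO libraries and 4 below, and their median log2 difference was -0.04 against 0 over all genes. Irf8, required for cDC1, had 16 and 14 summits in WT and 14 and 15 in KO, and the groups overlapped. Batf3, its partner, had 7 and 8 against 9 and 9. Cadm1, an adhesion molecule of cDC1, had 27 and 26 against 24 and 23. Clec9a, the receptor for dead cells, had 1 and 1 against 1 and 2.

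Id2, which encodes an inhibitor of E proteins needed for cDC1, had 6 and 7 summits in WT and 6 and 5 in KO. Nfil3, a factor upstream of Id2, had 5 and 9 against 6 and 4, and Zeb2, a repressor of Id2, 11 and 9 against 9 and 13. The groups overlapped at these 3 genes. Itgae, the CD103 gene, had 3 and 6 against 5 and 5, and Tlr3, the sensor of double-stranded RNA, 7 and 8 against 8 and 8. For Irf8, Batf3, Cadm1, Clec9a, Id2, Nfil3, Zeb2, Itgae and Tlr3 the limma adjusted p was 1.

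Of 23 tested genes of cDC2 identity 1 was above WT in both KO libraries and 6 were below, beside 6.72% above and 6.75% below over all genes tested. Tbx21, which encodes the transcription factor T-bet, had 5 and 5 summits in WT and 2 and 3 in KO. Cd14, the co-receptor for lipopolysaccharide, had 3 and 3 against 2 and 1. Both had an unadjusted p below 0.05 and did not pass (limma adjusted p = 0.688 and 0.941). Sirpa, a surface receptor gene of cDC2, was the one above, with 4 and 3 against 5 and 5. At the 82 shared sites of this list, 11 ranked higher in both KO libraries and 22 lower (19.5% and 19.9% over all shared sites). Their median difference was -1.96 points.

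Among 15 genes of all conventional dendritic cells and MHC class II, 2 were above and 3 below (6.72% and 6.75% over all genes). Zbtb46, a transcription factor of the lineage, had 13 and 13 summits in WT and 12 and 10 in KO. Flt3, the receptor for the main growth factor of dendritic cells, had 19 and 16 against 14 and 15. Ccr7, the receptor that guides dendritic cells to lymph nodes, had 10 and 9 against 8 and 5. Csf1r, the receptor for macrophage colony-stimulating factor, had 3 and 3 against 5 and 5, and Cd74, the invariant chain gene, 5 and 5 against 6 and 6. Ciita, the regulator of MHC class II genes, had 13 and 12 against 15 and 11, which overlap. At the 71 shared sites of this list, 7 ranked higher in both KO libraries and 22 lower (19.5% and 19.9% over all shared sites). Their median difference was -1.57 points.

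Of 26 genes of maturation and cytokines 0 were above WT in both KO libraries and 3 were below (6.72% and 6.75% over all genes), and the median log2 difference was -0.11. Cd274, the gene of the checkpoint ligand PD-L1, had 9 and 9 summits in WT and 7 and 6 in KO. Il6 had 9 and 8 against 7 and 5, and Ccl17, a chemokine gene for T cell attraction, 5 and 5 against 4 and 2. Cd40, Cd86 and Il12b overlapped, with 3 and 3 against 3 and 4, 14 and 13 against 13 and 11, and 10 and 10 against 9 and 10. At the 115 shared sites of this list, 15 ranked higher in both KO libraries and 25 lower (19.5% and 19.9% over all shared sites). Their median difference was -2.41 points, against -0.0395 points over all shared sites, -1.04 inside genes and -0.845 outside. The summed summits of the list were 166 and 169 in WT and 164 and 139 in KO, so the second KO library was the lower one.

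The 34 dendritic and myeloid transcription factors held 223 shared sites, 34 higher and 51 lower in both KO libraries (19.5% and 19.9% over all shared sites), with a median of -1.01 points. Beside these they held 2 sites found in KO alone and 12 found in WT alone, where all genes and the regions between them held 2437 and 2560. In the innate sensing list Tlr13, the sensor of bacterial ribosomal RNA, had 6 and 5 summits in WT and 4 and 2 in KO. In the list of MHC class I and cross-presentation, Psmb8, an immunoproteasome subunit, had 2 and 2 against 0 and 1. Psmb8 did not pass (limma adjusted p = 0.601). Psmb9 of the same list had 4 and 3 against 5 and 4, and whether such genes compete for a summit was not tested. The interferon-stimulated list had 0 of 15 above and 1 below (6.72% and 6.75% over all genes). Mx1 was not matched among the protein-coding genes, and B2m stayed below the filter of 1 summit on average.

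Of 26 tested genes of HDAC1 and its corepressor complexes, Rbbp7, a histone-binding subunit, alone did not overlap, with 4 and 3 summits in WT and 5 and 6 in KO. Over all genes tested 6.72% stood above and 6.75% below, which is also the background for the cell cycle and housekeeping lists. Mta3, of the NuRD complex, had 15 and 14 in WT and in KO. Cdkn1a, a cell cycle inhibitor gene known as a target of deacetylase inhibitors, had 3 in each cDC1 library. Of its 3 shared sites, 2 ranked higher in both KO libraries and 0 lower (19.5% and 19.9% over all shared sites), and 0 passed. Ccnd3, the cyclin D3 gene, had 9 and 9 against 15 and 11, and was the single one of 24 cell cycle genes without overlap. All 15 housekeeping genes overlapped.

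Among markers of other cell types, 4 of 16 tested T cell genes were above WT in both KO libraries and 0 below, beside 6.72% above and 6.75% below over all genes tested, which is also the background for the other lists here. Cd247, the zeta chain of the T cell receptor complex, had 4 and 6 summits in WT and 8 and 9 in KO. Bcl11b, a transcription factor of T cell commitment, had 1 and 0 against 2 and 3, Tcf7 2 and 3 against 4 and 4, and Cd5 4 and 4 against 5 and 5. The summed summits of the T cell list were 46 and 47 in WT and 58 and 56 in KO cDC1, and 50, 44, 60 and 64 in cDC2, WT before KO. Ranks did not rise with the counts. At the 31 shared sites of this list, 5 ranked higher in both KO libraries and 8 lower (19.5% and 19.9% over all shared sites). Their median difference was -4.36 points. Of the defining genes, Cd3g and Foxp3 were at 0 in every library, Cd3d at 1 in each, and Cd3e had 4 and 2 against 4 and 4 in cDC1. Fewer open chromatin sites per cell and fewer cells with them cannot be told apart in these sorted pools, and the part of other cells in the results was not tested. Of tested genes, the NK cell list had 1 of 10 above (Xcl1, 1 and 1 against 2 and 4). The granulocyte list had 1 of 6 and the erythroid and megakaryocyte list 2 of 6, and all 3 lists had 0 below. Gata1 of the erythroid list stayed below the filter and was not tested. It had 1 and 1 summits in WT and 0 and 0 in KO cDC1. The B cell list had 0 of 8 on either side, the monocyte and macrophage list 1 of 17 on each side, and the plasmacytoid list 0 above and 2 below of 14.

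Sites of open chromatin were shared nearly as well across the genotypes as within them. Of the 85925 sites with a summit in any cDC1 library, 48.7% had one in all 4 libraries and 24.2% in a single one. The Jaccard index, the number of sites shared by a pair of libraries over the number found in either, was 0.697 for the WT pair and 0.672 for the KO pair. Across the genotypes it was 0.664 to 0.672, so the KO pair was about as alike as the closest pair across. Of the 10% of summits with the highest score, 99.0% to 99.4% were found again in any other cDC1 library, and of the 10% with the lowest 41.0% to 44.3%.

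Both KO libraries and no WT library had a summit at 2437 sites (2.84%), and the reverse held for 2560 (2.98%). These were weak sites, with a median rank of 21.2% and 22.2%, against 65.1% for sites shared by all 4 libraries. The remaining cDC1 sites, found in 1 to 3 libraries in other combinations, had the same median rank, 21.2%. Within 1 kb of a gene end lay 11.6% of the KO sites and 10.4% of the WT sites, against 24.5% of the shared and 10.7% of the remaining ones. At 1032 of the KO sites and 703 of the WT sites, no list of the other genotype had a summit at any score. At 805 and 358 none had one within 1 kb. These 4 counts use full lists, in which the second KO list is the longest with 96031 summits, so a WT site is more easily matched than a KO site. Shared sites lay within 1 kb of 6.98% of the KO sites and of 16.1% of the WT sites.

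The 2 kinds of site differed in how often the other subset had them. Of the KO sites, 44.0% and 43.1% had a summit in the WT and 50.4% and 51.8% in the KO libraries of cDC2. Of the WT sites, 38.1% and 34.7% had one in the WT and 33.6% and 30.6% in the KO libraries of cDC2. The KO sites were found more often in each of the 4 cDC2 libraries, and 26.2% of them in all 4, against 15.6% of the WT sites. In no cDC2 library were 31.9% and 46.0%. For the remaining cDC1 sites the values were 34.7% to 36.7% in each cDC2 library, 18.6% in all 4 and 45.5% in none, which is near those of the WT sites. Sites found in KO alone in both subsets numbered 94, which is 3.86% of the cDC1 and 3.6% of the cDC2 list. Sites found in WT alone in both numbered 78, or 3.05% and 3.62%, while 32 and 40 sites had opposite genotypes in the subsets. Of the remaining cDC1 sites, 2.49% were found in KO alone and 2.03% in WT alone in cDC2. Read from the side of cDC2, its 40661 shared sites had a summit in 83.3% and 83.9% of cases in WT and in 84.2% and 85.1% in KO cDC1 (no test was made).

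**Figure D4:**
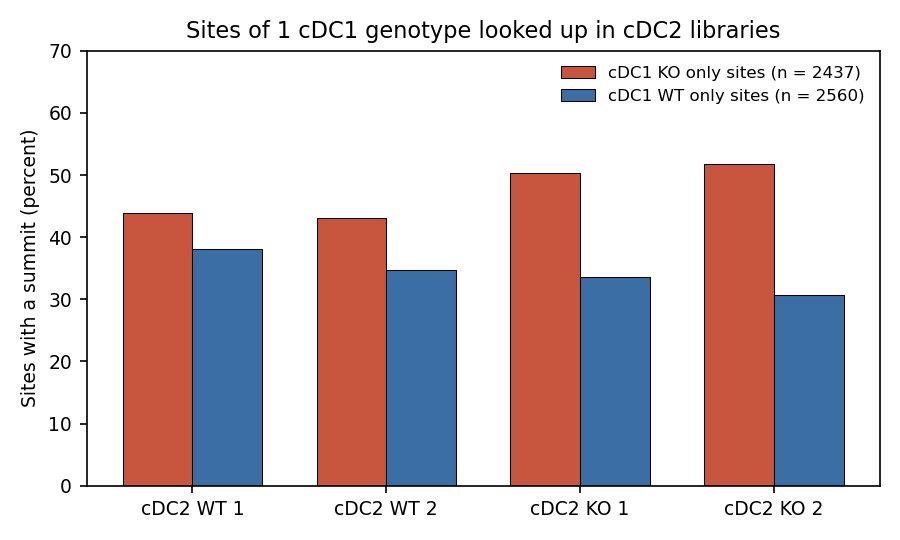
Percent of the sites found in both KO and no WT library of cDC1 (red, 2437 sites) and of the reverse kind (blue, 2560 sites) that had a summit in each cDC2 library. The red bars, 43.1% to 51.8%, are taller than the blue bars, 30.6% to 38.1%, in every library.

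The strongest sites of either kind were neighbours of each other. Vkorc1l1, Maco1, Kifc2, Ninj1 and Tubb6 each had a site in both lists of the 10 strongest, with summits of the other genotype at ranks near the same level. At Vkorc1l1 the KO summits (chromosome 5, 129941893 to 129941903) lay 316 bp from the nearest WT summit, whose ranks were 97.4% and 96.2% in WT. At Ninj1 the WT summits (chromosome 13, 49187452 to 49187474) lay 591 bp from the KO summits, at ranks of 88.8% and 87.3%. At these 5 gene ends the deposited lists thus differ in the place of the summit and not in its presence.

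Of the KO sites with no WT summit of any score within 1 kb, the strongest were at Sema6a, a transmembrane semaphorin gene (ranks of 54.4% and 68.0%), and Atp13a4, a cation-transporting ATPase gene (59.2% and 53.3%). Another lay 12285 bp from Lypd6 (chromosome 2, 50054109 to 50054122, 56.4% and 53.3%). The site nearest to Bach1, a repressor of oxidative stress genes, was 31570 bp away (50.6% and 53.0%) and had summits in all 4 cDC2 libraries. The others among the 10 strongest were at or near Cacnb4, Trim36, Adamts17, Gm52215, Plxnb2 and Nelfa. Of the corresponding WT sites, the strongest were at Zeb1, a relative of Zeb2 (62.2% and 66.5%), and near N4bp1, an inhibitor of NF-kB signalling (67.6% and 61.3%). Tfeb, a regulator of lysosomal genes, had one at 53.7% and 57.8%, and Scp2, Gm5861, Hivep2, Cnot1, Acadl, Tep1 and Mrpl38 completed the list.

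Differences in rank at single shared sites were tested with limma on normal scores of the ranks, a scale on which 1 unit is the standard deviation of a library's ranks. Of 41868 sites 7 (0.0167%) passed at an adjusted p below 0.05, 4 higher in KO (0.00955%) and 3 lower (0.00717%). Inside Zfpm1, which encodes the GATA cofactor FOG1, a site (chromosome 8, 122294303 to 122294389) rose from ranks of 63.0% and 61.2% in WT to 90.1% and 91.1% in KO (difference 1.01, SE 0.174, limma adjusted p = 0.0188). In cDC2 this site had no WT summit and KO ranks of 1.24% and 29.6%. A site inside Phactr1, a regulator of actin and phosphatase 1 (chromosome 13, 43122757 to 43122885), rose from 47.1% and 46.0% to 79.6% and 90.1% (limma adjusted p = 0.0452). In cDC2 it stood at 18.8% and 28.4% in WT and at 54.6% and 72.7% in KO, again without overlap. A site 19564 bp from Cldn4, a tight junction gene (chromosome 5, 134966459 to 134966538), rose from 43.3% and 51.6% to 81.6% and 89.6% (limma adjusted p = 0.0452). At the end of Dsel a site (chromosome 1, 111864976 to 111864997) rose from 90.5% and 97.6% to 99.8% and 99.3% (limma adjusted p = 0.0452). The cDC2 groups overlapped at the Cldn4 site, with 70.7% and 82.2% in WT and 77.8% and 81.1% in KO. They also overlapped at the Dsel site, with 98.5% and 99.7% in WT and 98.8% and 99.4% in KO.

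The fall with the smallest p was at a site inside Rell1, a relative of the TNF receptor family member RELT (chromosome 5, 63948907 to 63948961). It fell from 92.8% and 89.6% in WT to 67.5% and 41.8% in KO (difference -1.24, SE 0.197, limma adjusted p = 0.00797). In cDC2 this site stood at 85.85% and 80.45% in WT and at 79.68% and 41.31% in KO, without overlap. A site 27642 bp from Tcf7l2, a transcription factor of the Wnt pathway (chromosome 19, 55714112 to 55714199), fell from 94.1% and 93.3% to 68.5% and 79.6% (limma adjusted p = 0.0428). There the cDC2 groups overlapped, with 86.7% and 90.8% in WT and 94.8% and 84.0% in KO. A site whose nearest gene is Trib1, a pseudokinase that lowers C/EBP alpha, lay 102726 bp from it (chromosome 15, 59759781 to 59759870) and fell from 89.7% and 92.5% to 79.3% and 21.5% (limma adjusted p = 0.0452). The last value rests on the second KO library, without which the difference was -0.54 in place of -1.34 and did not pass. At the Trib1 site the cDC2 groups overlapped, with 77.6% and 87.5% in WT and 85.2% and 74.3% in KO. None of the 7 sites passed when ranks were tested in percent or with a prior variance that does not follow the rank.

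**Figure D5:**
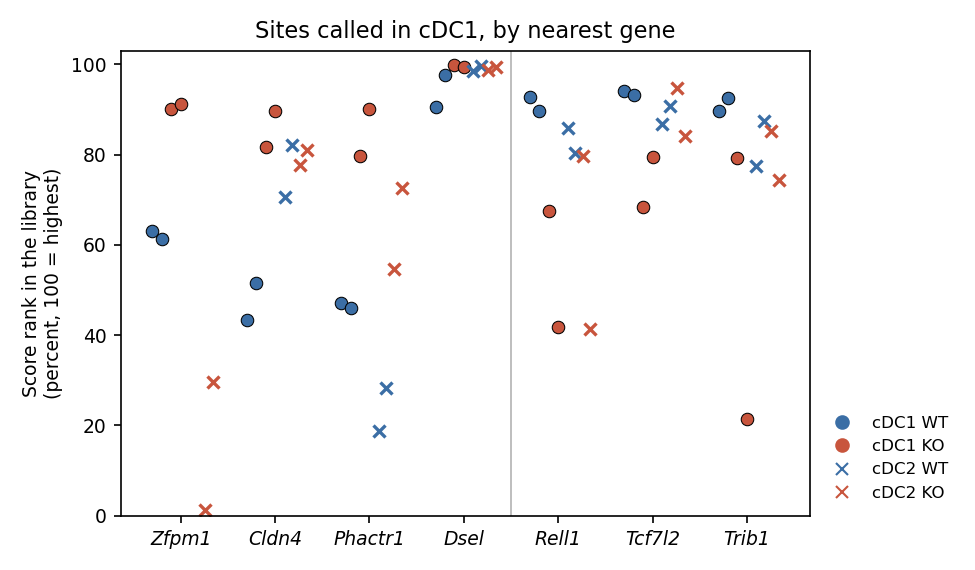
Score rank within the library (percent, 100 = highest) of the 7 sites that passed in cDC1, by nearest gene, in each cDC1 library (circles) and each cDC2 library with a summit there (crosses), WT in blue and KO in red. At Zfpm1 the KO circles, 90.1% and 91.1%, stand above the WT circles, 63.0% and 61.2%; at Trib1 a single KO library is at 21.5%.

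At an unadjusted p below 0.05, 4.34% of shared sites were higher and 4.91% lower in KO. For the 29645 sites found in all 8 libraries, limma called 0 differences between the KO effects of the 2 subsets, with 1314 (4.43%) at an unadjusted p below 0.05.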

How the data were processed

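ATAC-seq libraries were processed by the authors with Bowtie2, SAMtools, MACS2 and MultiQC on GRCm38 (mm10), per the submitters' processing notes; versions and settings are not given in the sources used here. The score in the deposited summit lists was read as the −log10 of a q-value, since the minimum per list is 1.30 to 1.36; such scores rise with depth. Lists were cut to 61737 summits. Summits were given to the nearest of 21883 RefSeq protein-coding spans within 50 kb, without strand or exons, so gene ends stand for starts except in the promoter windows. Genes that averaged 1 summit or more over 8 libraries were fitted in limma 3.58.1 (R 4.3.3) with a pseudocount of 1, 1 mean per group and an added rounding variance of 0.0833 squared summits, a treatment chosen after the data had been seen. Ranks were fitted over the 4 cDC1 libraries with a trended prior. Adjusted p-values are Benjamini-Hochberg values, threshold 0.05. Tested on simulated data, the gene fit made 0 calls in each of 3 sets without change, and in a set with changes it recovered 3 of 100 genes at 2-fold and 81 of 100 at 4-fold with 6 unchanged genes called; the rank fit recovered 55 of 100 sites shifted by 1 unit and 96 of 100 shifted by 2, with 15 unchanged sites called. Named genes were Hdac1, all called genes, those of smallest p up to 12 in each direction and a fixed set of dendritic cell and chromatin genes; named sites were the called ones and the 10 strongest of each kind found in 1 genotype. The members and the 21 lists were chosen with earlier results of these data known. Python 3.11.15 and scipy 1.17.1 gave the exact tests.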

Additional observations from a re-analysis of the deposited data

How the results depend on the processing

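The excess of KO in genes and in promoter windows with a summit kept its direction under every alternative run, and the higher ranks near gene ends under those with lists of equal length. The count of genes that passed in cDC1, 1, was 0 with a pseudocount of 0.5, without the low filter and with a filter at 3 summits, 32 with a pseudocount of 2, 174 without the added variance, 111 with a trended robust prior, 98 with the cDC1 libraries alone, 63 with lists cut to 30868, 6 with genes within 10 kb, and 35 to 84 without 1 library each, where the lone library is assumed to vary like the other groups. For the difference between subsets, 0, it was 299 without the added variance, 33 with the trended prior, 36 with the shorter lists and 0 to 29 without 1 library. Of the listed genes 0 passed, against 1 without the added variance and with the trended prior, 2 with the cDC1 libraries alone and the shorter lists, and 0 to 2 without 1 library. Of shared sites 7 passed, against 0 in percent and with a constant prior, 2 with all 8 libraries, 3 with the shorter lists and with chaining within 500 bp, 15 with chaining within 100 bp, and 6 to 250 without 1 library (250 without the first and 72 without the second KO library, 26 without the second WT library); their subset difference gave 0 to 2 without 1 library.

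The deviations of WT 1 and KO 1 in cDC1 correlated at 0.00214 over genes and -0.0118 over ranks, so no shared deviation was seen. The labels do not say whether libraries of the same number were handled together, and these correlations cannot exclude it. Between the subsets, number 1 correlated at 0.0171 (WT) and 0.0286 (KO) over genes and at 0.0521 and 0.151 over ranks, so pairing of the subsets is not settled. With the replicate block 114 genes passed in cDC1, 38 for the difference between subsets, 2 listed genes, and 71 sites.

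Sites found in KO alone, 2437, were 4462 with all deposited summits, 1209 with the shorter lists and 4941 to 8103 without 1 library; those in WT alone, 2560, were 1324 with the shorter lists and 5571 to 7505 without 1 library. Absent at any score from the other genotype were 1032 and 703, and 805 and 358 had nothing within 1 kb. The Jaccard index within minus across genotypes, 0.017, was 0.0109 with all summits, 0.0249 with the shorter lists and 0.00305 to 0.0318 without 1 library. With all summits the difference in share was -0.794 points near gene ends and 0.241 inside genes, and with the shorter lists -0.126 outside genes; without 1 library it ranged from -0.199 to 0.624 near ends. The list length difference, 8693.5, ranged from -1840.5 (without the second KO library) to 19227.5. Promoter windows in KO alone, 55, were 95 with the shorter lists and 106 to 169 without 1 library; those in WT alone, 8, were 0 with all summits and 24 to 44 without 1 library. Genes in KO alone, 210, were 407 to 474 without 1 library; those in WT alone, 69, were 45 with all summits and 211 to 225 without 1 library. The median rank difference was 1.39 inside and 1.86 outside genes with all summits, and 1.49 near gene ends. With all summits the lists differ in length, and the second KO list is the longest; the cause of the changes was not tested.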
